A study of Mus musculus with 12 samples.

Results

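The glucocorticoid-responsive genes were followed as a set of 10 genes, Zbtb16, Fkbp5, Tsc22d3, Per1, Sgk1, Pdk4, Nr3c1, Errfi1, Ddit4 and Zfp36, of the 44345 gene names with a read count in dorsal root ganglia (DRG). Zbtb16 was chosen by its measured rise in both SH SNA and EE Sham, and the other 9 were named as known targets of the glucocorticoid receptor or, for Nr3c1, as the receptor itself, with earlier results of these data known. All 10 genes passed the filter on low counts and were among the 16238 genes tested. Because its own values selected it, Zbtb16 is described without a test, and every count of changed genes is over the other 9.

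RNA came from whole sciatic DRG (L4-L6) of wild-type C57BL/6 mice aged 5 to 8 weeks, with no other genotype or agent in any group, and each of the 12 samples pooled the ganglia of 2 mice. Mice lived for 10 days in standard housing (SH) or in environmental enrichment (EE), a larger cage shared by more animals with a running wheel and objects to explore, and then had sham surgery or a sciatic nerve axotomy (SNA), in which the nerve that carries the axons of these neurons is cut. The ganglia were taken 24 h later, giving 3 samples in each of 4 groups: SH Sham and EE Sham without nerve injury, SH SNA and EE + SNA with it. Per the study, the EE Sham samples were described in an earlier dataset. In EE Sham against SH Sham, housing and batch therefore cannot be told apart. In EE + SNA against EE Sham, surgery and batch cannot be told apart. Batch also enters any comparison of the effect of SNA between the housings. The labels name no batch, and the study does not state to which dataset the SH Sham samples belong. Batch may therefore also enter SH SNA and EE + SNA against SH Sham.

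Corticosterone, the main glucocorticoid of mice, is released by the adrenal gland in a daily rhythm and in response to stress, surgery and exercise. It binds the glucocorticoid receptor, which waits in the cytoplasm with heat shock proteins and co-chaperones and then enters the nucleus. There the receptor binds glucocorticoid response elements, each built from a pair of facing half-sites, and raises a set of genes that slow growth signals, shift fuel use and dampen inflammation. In sensory ganglia the receptor is present in neurons and in glia. In whole ganglia, a change in RNA per cell and a change in the number of cells of a type cannot be told apart.

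The response element is best seen in the promoter of Sgk1, a kinase that regulates ion channels and transporters. RefSeq windows of 300 bases reached from 250 bases before to 50 bases after a transcript start (GRCm38.p6). Windows of 8 of the genes, matched by symbol, were used, and no window of Zbtb16 or Nr3c1 was searched. Both strands were searched for the half-site AGAACA, which reads TGTTCT on the opposite strand. They were also searched for both facing each other with 3 bases between them. The sequences below are the 250 bases before a start, 5′ to 3′ on the strand of the gene, with half-sites in capitals. Sgk1 and Tsc22d3 are shown because they hold half-sites, and Fkbp5 and Pdk4 because their RNA rose after SNA.
Sgk1, chr10:21993640-21993889, plus strand: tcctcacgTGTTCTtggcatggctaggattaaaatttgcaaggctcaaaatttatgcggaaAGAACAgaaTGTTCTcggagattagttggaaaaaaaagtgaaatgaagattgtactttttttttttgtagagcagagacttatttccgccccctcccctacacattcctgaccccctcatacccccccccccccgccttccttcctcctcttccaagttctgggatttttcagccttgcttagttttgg
Tsc22d3, chrX:140600523-140600772, minus strand: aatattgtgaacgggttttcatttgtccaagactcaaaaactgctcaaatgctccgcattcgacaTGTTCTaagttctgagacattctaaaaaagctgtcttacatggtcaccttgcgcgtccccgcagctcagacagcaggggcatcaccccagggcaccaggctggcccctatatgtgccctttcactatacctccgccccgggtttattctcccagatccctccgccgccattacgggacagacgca
Fkbp5, chr17:28486150-28486399, minus strand: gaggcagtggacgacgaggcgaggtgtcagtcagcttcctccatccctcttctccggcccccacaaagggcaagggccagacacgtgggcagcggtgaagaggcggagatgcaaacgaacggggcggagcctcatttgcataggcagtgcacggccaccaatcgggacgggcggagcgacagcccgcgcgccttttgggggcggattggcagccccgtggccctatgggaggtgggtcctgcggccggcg
Pdk4, chr6:5496279-5496528, minus strand: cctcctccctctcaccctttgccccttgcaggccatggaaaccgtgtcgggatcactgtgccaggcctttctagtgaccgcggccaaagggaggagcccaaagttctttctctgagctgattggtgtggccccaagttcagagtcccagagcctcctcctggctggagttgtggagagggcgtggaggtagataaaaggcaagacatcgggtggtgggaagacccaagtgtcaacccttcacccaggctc
In the Sgk1 window the facing pair begins 189 bases before the start and a further half-site lies 242 bases before it. Only 3 of the 32851 mouse windows held a facing pair. Single half-sites were common: 18.97% of all windows held at least 1, and 4 of the 17 windows of these genes did (23.5%), 3 of them among the 6 windows of Sgk1 and 1 among the 3 of Tsc22d3. The half-site of Tsc22d3 lies 185 bases before its start. The windows of Fkbp5, Pdk4, Per1, Errfi1, Ddit4 and Zfp36 held no half-site, which says only that these letters are not in this stretch.

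The 12 samples held between 11343579 and 22871460 reads on genes. The group labels were checked with Atf3, a transcription factor switched on by axotomy, whose mean rose from 119 ± 16.3 CPM in SH Sham to 516 ± 27.9 CPM in SH SNA and 483 ± 31.0 CPM in EE + SNA (SD, n = 3), against 147 ± 18.2 CPM in EE Sham. CPM are read counts relative to the reads on genes in the library, scaled between libraries by TMM. The 10 sensory neuron markers were read in every library, with Tubb3, a neuronal tubulin, between 2278 and 2639 CPM. However, 3 of the 10 fell after SNA in either housing against SH Sham, where 11.2% (SH SNA) and 12.5% (EE + SNA) of all genes were called. In SH SNA these were Isl1, a transcription factor of sensory neurons, by a log2 fold change of −0.42 ± 0.07 (edgeR adjusted P = 0.00167), Rbfox3, the neuronal nuclear protein NeuN, by −0.36 ± 0.05 (adjusted P = 0.00106), and Nefh, the heavy neurofilament, by −0.32 ± 0.07 (adjusted P = 0.00726). These 3 are named because they passed, after their values were seen. Below, "rose" and "fell" are used only where the P-value of edgeR's quasi-likelihood F test, adjusted over all 16238 genes by Benjamini and Hochberg, was below 0.05, and unadjusted P-values are given for results against SH Sham that passed only the study's own threshold, an unadjusted P-value of 0.05.

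Zbtb16, a zinc-finger transcription factor (PLZF) that glucocorticoids induce in many cell types, lies at chr9:48654297-48836222 on the minus strand and was the lowest of the 10 genes per length. In SH Sham it was read at 2.99, 5.09 and 5.82 CPM in replicates 1, 2 and 3. In SH SNA it stood at 11.9, 8.53 and 15.4 CPM. EE Sham gave 12.3, 13.8 and 11.1 CPM. All 3 samples of either group lay above all 3 of SH Sham, which is the pattern it was picked for. In EE + SNA it stood at 9.17, 11.01 and 8.22 CPM, again above SH Sham, below each EE Sham sample and overlapping SH SNA. The log2 fold changes against SH Sham were 1.38 ± 0.24 in SH SNA, 1.43 ± 0.19 in EE Sham and 1.06 ± 0.21 in EE + SNA (estimate ± SE), and all 3 share the SH Sham samples. Between EE + SNA and EE Sham the difference was −0.38 ± 0.14, and between EE + SNA and SH SNA it was −0.32 ± 0.19. Zbtb16 rested on 51 to 253 reads per sample, few enough that 1 library can move a group: SH Sham replicate 1 stood lowest in its group by 0.57 on the log2 scale below the group mean.

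**Figure D1:**
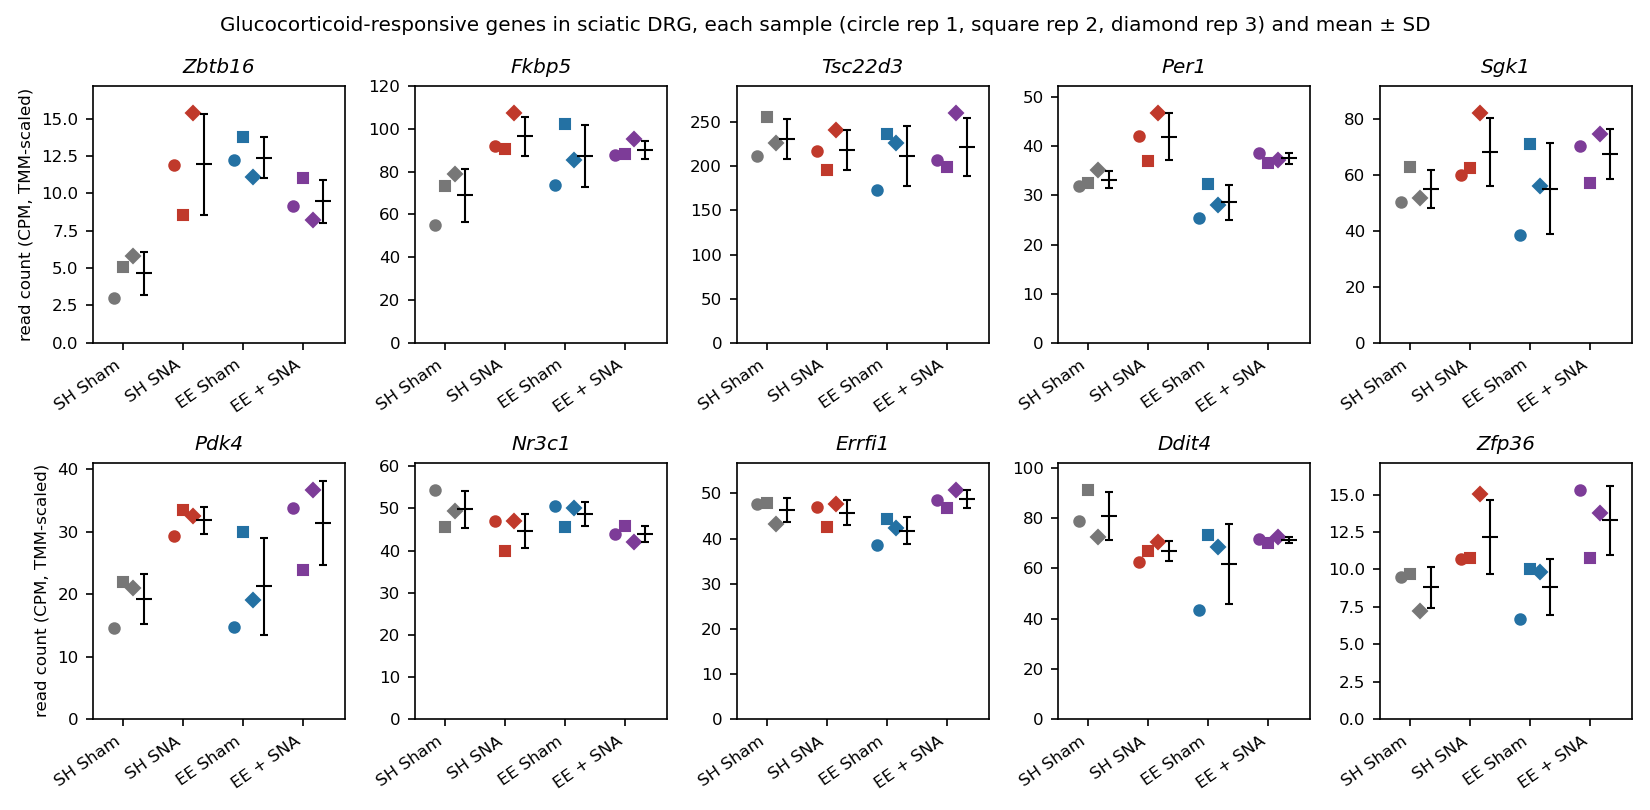
Read counts (CPM, linear axis from 0) of the 10 genes in each of the 12 samples, by group, with the mean and SD (n = 3) beside the points. Zbtb16 is lowest in SH Sham, Pdk4 and Zfp36 stand higher in both SNA groups than in SH Sham, and Tsc22d3 and Nr3c1 overlap between groups.

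Among receptor and co-chaperone genes, Fkbp5 rose after SNA while the receptor gene Nr3c1 stayed within about 12% of SH Sham. Fkbp5 encodes FKBP51, a co-chaperone that lowers the affinity of the receptor for its hormone and closes a feedback loop (chr17:28399094-28517527, minus strand). In SH Sham it stood at 55.0, 73.1 and 78.8 CPM. In SH SNA it reached 91.8, 90.7 and 107 CPM. In EE + SNA it was at 87.7, 88.2 and 95.3 CPM. The lowest sample of either SNA group lay above the highest of SH Sham. It rose by a log2 fold change of 0.49 ± 0.11 in SH SNA (edgeR adjusted P = 0.0132) and 0.39 ± 0.10 in EE + SNA (adjusted P = 0.0291). The call in SH SNA was lost without SH SNA replicate 3 (adjusted P = 0.0543), and that in EE + SNA without SH Sham replicate 1 (0.0608), EE + SNA replicate 1 (0.0744) or EE + SNA replicate 3 (0.0666). In EE Sham, Fkbp5 stood at 73.7, 103 and 85.6 CPM, overlapping SH Sham, with a log2 fold change of 0.35 ± 0.13 whose unadjusted P-value from edgeR was 0.0174.

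Nr3c1 encodes the glucocorticoid receptor. In SH Sham it stood at 54.4, 45.6 and 49.5 CPM, and in EE Sham at 50.6, 45.5 and 50.04 CPM. In SH SNA it was at 47.0, 40.0 and 47.0 CPM, and in EE + SNA at 43.9, 45.8 and 42.0 CPM. The SNA samples lay at the lower end, overlapping SH Sham. Its log2 fold change was −0.15 ± 0.09 in SH SNA (edgeR adjusted P = 0.287) and −0.18 ± 0.08 in EE + SNA (adjusted P = 0.137, unadjusted 0.0307), and −0.04 in EE Sham with a 95% interval from −0.21 to 0.14.

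Of the other 14 receptor and chaperone genes listed, 2 fell and none rose in SH SNA, and likewise in EE + SNA against SH Sham, a share near that of all genes called in these comparisons (11.2% and 12.5%). They were Nr3c2, the mineralocorticoid receptor, which binds corticosterone as well, and Fkbp4, the co-chaperone FKBP52 that competes with FKBP51. Nr3c2 fell from 19.7 ± 2.16 CPM in SH Sham to 14.6 ± 1.25 in SH SNA and 13.3 ± 0.65 in EE + SNA (SD, n = 3), log2 fold changes of −0.43 ± 0.11 and −0.56 ± 0.10 (adjusted P = 0.0237 and 0.00409). Fkbp4 differed by −0.19 ± 0.06 in SH SNA and −0.20 ± 0.06 in EE + SNA (adjusted P = 0.0423 and 0.0355). Of 6 genes that supply or remove active corticosterone, 1 rose in each of these comparisons, where 11.2% and 12.5% of all genes were called: H6pd, which feeds the reductase encoded by Hsd11b1, rose by 0.50 ± 0.10 in SH SNA and 0.51 ± 0.10 in EE + SNA on the log2 scale (adjusted P = 0.00806 and 0.00752). Hsd11b1 itself was near 1 CPM, with means from 1.14 ± 0.52 in SH Sham to 1.96 ± 1.06 in EE + SNA, and its change of 0.58 ± 0.42 in SH SNA had an adjusted P of 0.438.

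Of the targets in metabolism and signalling, Pdk4 rose most among the 9 tested genes. Pdk4 encodes a kinase that switches off pyruvate dehydrogenase and so spares glucose for fatty acids (chr6:5483351-5496309, minus strand). In SH Sham it stood at 14.5, 21.9 and 21.1 CPM. In SH SNA it was at 29.3, 33.5 and 32.5 CPM. In EE + SNA it was at 33.8, 23.8 and 36.7 CPM. All 6 SNA samples lay above the 3 of SH Sham. The log2 fold change was 0.74 ± 0.13 in SH SNA (edgeR adjusted P = 0.00346), a rise of 66.7%, and 0.70 ± 0.17 in EE + SNA (adjusted P = 0.0168). The second call was lost without SH Sham replicate 1 (adjusted P = 0.0776) or EE + SNA replicate 1 (0.0693), and with DESeq2 (0.0502). In EE Sham, Pdk4 was spread widely, at 14.8, 29.9 and 19.01 CPM, with a log2 fold change of 0.17 and a 95% interval from −0.27 to 0.60.

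Fat-cell markers varied beside Pdk4, which adipocytes express too. The 6 adipocyte markers summed to 11.5, 30.0 and 21.9 CPM in SH Sham, 33.6, 28.1 and 13.8 in SH SNA, 11.6, 44.7 and 18.7 in EE Sham, and 92.0, 25.9 and 55.8 in EE + SNA. Against SH Sham, 3 of the 4 adipocyte markers tested rose in EE + SNA and none in SH SNA, where 12.5% and 11.2% of all genes were called. Adipoq, the fat hormone adiponectin, was higher by 1.51 ± 0.39 in EE + SNA (edgeR adjusted P = 0.0235). Adipoq was read in every sample. In SH SNA, where Pdk4 rose, the adipocyte sum overlapped that of SH Sham. The order of the 3 samples by Pdk4 and by this sum was the same in SH Sham and EE Sham. The part of these cells in the level of Pdk4 was not tested.

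Sgk1 lies at chr10:21882184-21999903 on the plus strand. SH Sham gave 50.4, 62.8 and 51.7 CPM, SH SNA 59.9, 62.5 and 81.9 CPM. EE Sham gave 38.4, 70.8 and 55.9 CPM, EE + SNA 70.1, 57.2 and 74.4 CPM. The groups overlapped in each comparison. The log2 fold change was 0.31 ± 0.12 in SH SNA (edgeR adjusted P = 0.108, unadjusted 0.0184) and 0.28 ± 0.10 in EE + SNA (adjusted 0.0999, unadjusted 0.0184). Against this, EE Sham differed by 0.01, with a 95% interval from −0.33 to 0.35.

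Ddit4 (REDD1) and Errfi1 (MIG6) encode brakes on growth signals, of mTORC1 and of the EGF receptor. Ddit4 (chr10:59949669-59951834, minus strand) stood at 78.7, 91.2 and 72.6 CPM in SH Sham. It was at 62.6, 67.1 and 70.6 CPM in SH SNA, at 43.4, 73.2 and 68.6 CPM in EE Sham, and at 71.6, 70.0 and 72.4 CPM in EE + SNA. Every SH SNA and EE + SNA sample was below the lowest of SH Sham, and EE Sham reached just above it with 1 sample. As with Tsc22d3 and Nr3c1, whose groups overlapped, the group mean of Ddit4 was highest in SH Sham (80.8 CPM). The log2 fold change was −0.27 ± 0.08 in SH SNA (edgeR adjusted P = 0.0546, unadjusted 0.00637), −0.38 ± 0.15 in EE Sham (unadjusted P = 0.0194) and −0.18 ± 0.08 in EE + SNA (adjusted P = 0.165, unadjusted 0.0418). DESeq2, the likelihood ratio test and scaling by library size alone placed the first of these past the threshold (adjusted P = 0.0310, 0.0373 and 0.0427). Errfi1 (chr4:150853919-150868892, plus strand) ranged from 38.6 to 50.8 CPM over the 12 samples, and its group means were 46.3 ± 2.62 in SH Sham, 45.8 ± 2.86 in SH SNA, 41.8 ± 2.90 in EE Sham and 48.7 ± 2.02 in EE + SNA (SD, n = 3). All 3 EE + SNA samples lay above all 3 EE Sham samples, by 0.21 ± 0.08 on the log2 scale (edgeR adjusted P = 0.140, unadjusted 0.0171), and the groups overlapped in the other comparisons. None of its comparisons passed after adjustment.

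Per1, a repressor of the circadian clock that also answers to glucocorticoids (chr11:69095217-69109960, plus strand), stood at 31.9, 32.6 and 35.2 CPM in SH Sham. In SH SNA it was at 42.2, 37.1 and 46.7 CPM. In EE Sham it was at 25.4, 32.4 and 28.0 CPM, and in EE + SNA at 38.7, 36.6 and 37.3 CPM. Every SNA sample lay above every sham sample, in either housing. On the log2 scale it rose by 0.34 ± 0.09 in SH SNA against SH Sham (edgeR adjusted P = 0.0260). In EE + SNA against EE Sham it rose by 0.38 ± 0.09 (adjusted P = 0.0385). These comparisons share no sample, but surgery and batch cannot be told apart in the second, and batch may enter the first. Both calls depended on single libraries. That in SH SNA was lost without SH Sham replicate 1 (adjusted P = 0.104), SH Sham replicate 2 (0.0866), SH SNA replicate 1 (0.0721) or SH SNA replicate 3 (0.113), and that in EE + SNA without any sample other than EE Sham replicate 2 (adjusted P from 0.0704 to 0.152). Against SH Sham, EE + SNA differed by 0.17 ± 0.07 (adjusted P = 0.117, unadjusted 0.0239) and EE Sham by −0.21 ± 0.09 (unadjusted P = 0.0405).

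Of the other 14 clock genes listed, 2 rose and none fell in SH SNA, a share near the 11.2% of all genes called, with a median log2 fold change of 0.02 against 0.00465 over all genes. The 2 were Bhlhe41 (DEC2), a repressor, at 0.47 ± 0.06 (adjusted P = 0.000435), and Cry2, partner of the PER proteins, at 0.25 ± 0.06 (adjusted P = 0.0173). Both also rose in EE + SNA against SH Sham, by 0.53 ± 0.06 and 0.27 ± 0.06. Dbp and Nr1d1, clock outputs with a strong daily rhythm, differed by −0.33 ± 0.16 and −0.11 ± 0.06 in SH SNA (adjusted P = 0.221 and 0.307). With Per1 included, the 15 clock genes summed to between 549 and 562 CPM in SH Sham, 542 and 561 CPM in EE Sham, 555 and 609 CPM in SH SNA and 590 and 604 CPM in EE + SNA. The EE + SNA samples lay above both sham groups on this sum, and those of SH SNA overlapped them. Bhlhe41 and Cry2 carried much of it, with means of 64.4 and 83.6 CPM in SH Sham and 92.9 and 101 CPM in EE + SNA. Others, such as Tef (106 and 97.7 CPM), had a lower mean in EE + SNA, so the sum does not stand for all 15 genes. The hour at which ganglia were taken is not given in the sources used here.

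Tsc22d3 and Zfp36 encode effectors against inflammation. Tsc22d3 (GILZ, which restrains NF-kB; chrX:140539528-140600659, minus strand) stood at 212, 256 and 226 CPM in SH Sham and at 218, 196 and 242 CPM in SH SNA. EE Sham gave 173, 237 and 226 CPM, and EE + SNA 207, 199 and 260 CPM. The groups overlapped throughout. Its log2 fold changes against SH Sham were −0.08 in SH SNA (95% interval −0.26 to 0.10), −0.12 in EE Sham (−0.35 to 0.10) and −0.06 in EE + SNA (−0.27 to 0.15). These intervals leave out a change as large as that of Pdk4.

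Zfp36 (tristetraprolin, which speeds the decay of cytokine mRNA; chr7:28376784-28380253, minus strand) stood at 9.50, 9.68 and 7.22 CPM in SH Sham. It was at 10.7, 10.7 and 15.0 CPM in SH SNA, at 6.68, 10.0 and 9.83 CPM in EE Sham, and at 15.3, 10.8 and 13.8 CPM in EE + SNA. All 6 SNA samples lay above the 6 sham samples. It rose in EE + SNA against SH Sham, by 0.57 ± 0.15 (edgeR adjusted P = 0.0301), and differed by 0.47 ± 0.16 in SH SNA (adjusted P = 0.0817, unadjusted 0.0121). The call was lost without SH Sham replicate 1 (adjusted P = 0.0627) or 3 (0.108) or EE + SNA replicate 1 (0.123) or 3 (0.0679), and with the replicate number as a block (adjusted P = 0.0552). In the annotation 125 of its 3470 exon bases also belong to Gm44710 on the other strand, and whether counting used strand is not given in the sources used here. Exons of the other 9 genes overlapped no other gene.

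Of 6 cytokine and adhesion genes that glucocorticoids are known to hold down, 1 rose in SH SNA and in EE + SNA against SH Sham, where 11.2% and 12.5% of all genes were called. Their median log2 fold change was 0.58 in either comparison, against 0.00465 and 0.00466 over all genes. Unadjusted, 2 of the 6 were higher in SH SNA and 4 in EE + SNA, and none was lower. Over all genes, 25.2% and 27.2% passed that threshold. Il6, an injury-induced cytokine, rose from 1.45 ± 0.18 CPM in SH Sham to 2.95 ± 0.50 CPM in SH SNA and 3.65 ± 0.27 CPM in EE + SNA (SD, n = 3), log2 fold changes of 1.02 ± 0.23 and 1.32 ± 0.21 (adjusted P = 0.0113 and 0.00145). In EE Sham it stood at 1.21 ± 0.20 CPM. The SNA and sham groups did not overlap for it.

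Counted by comparison, 3 of the 9 genes rose after SNA in either housing against SH Sham. In SH SNA against SH Sham, 3 of the 9 genes rose (Pdk4, Fkbp5 and Per1) and none fell, where 11.2% of all genes were called, and their median log2 fold change was 0.31 against 0.00465 over all genes. At the unadjusted threshold 6 were called, 5 of them higher and Ddit4 lower, where 25.2% of all genes were. In EE + SNA against SH Sham, 3 of 9 rose (Pdk4, Zfp36 and Fkbp5), where 12.5% of all genes were called, and 7 passed unadjusted, 5 of them higher and Nr3c1 and Ddit4 lower, where 27.2% did. Its count fell to 0 without SH Sham replicate 1 or EE + SNA replicate 1 and to 1 without EE + SNA replicate 3. The count in SH SNA fell to 1 without SH SNA replicate 3. The share of all genes called in these fits is not given here. Both comparisons use the same SH Sham samples. In EE + SNA against EE Sham, which shares none with SH SNA against SH Sham, 1 of 9 rose (Per1), where 4.83% of all genes were called. Surgery and batch cannot be told apart in that comparison. Unadjusted, 4 were higher (Per1, Zfp36, Pdk4 and Errfi1), where 20.6% of all genes passed.

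EE without injury called none of the 9 genes with edgeR after adjustment, where 0.00616% of all genes were called. The 1 gene called was Zbtb16, and nothing is read from that call because this contrast was used to choose the gene. Unadjusted, 3 passed, Fkbp5 higher and Per1 and Ddit4 lower, where 2.97% of all genes did, and DESeq2 called none at either threshold. Samples of the same replicate number varied together weakly in this comparison (r from 0.125 to 0.333), and different-numbered samples reached an r of 0.197. The replicate number is thus a weak basis for pairing, chosen on these data. With the number as a block 29 of 16238 genes were called (0.179%). Among these were Fkbp5, higher by 0.34 (adjusted P = 0.0137), and Ddit4, lower by a log2 fold change of −0.41 (adjusted P = 0.00832). The block also called 2 of the 31 other glucocorticoid targets described below, Plin4 and Mertk.

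After SNA, housing made no difference that could be called: EE + SNA against SH SNA called 0 of 9 genes with edgeR after adjustment and 0 unadjusted, and DESeq2 called 0, where edgeR called 0% and 4.1% of all genes. The 95% intervals of these log2 differences ran from −0.04 to 0.23 for Ddit4, the narrowest, and from −0.25 to 0.47 for Zfp36, the widest. A test of the interaction, whether SNA acted differently in EE than in SH, called 0 of 9 with edgeR, where it called 0% of all genes, and DESeq2 called 0. Unadjusted, 3 passed, where 2.61% of all genes did: Fkbp5 at −0.44 ± 0.17 (unadjusted P = 0.0202), Ddit4 at 0.48 ± 0.19 (unadjusted P = 0.0211) and Errfi1 at 0.23 ± 0.10 (unadjusted P = 0.0369), all with an adjusted P near 1. For Zbtb16 the same difference was −1.75 ± 0.31, in the direction that its choice favours, and is given as a value only.

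**Figure D2:**
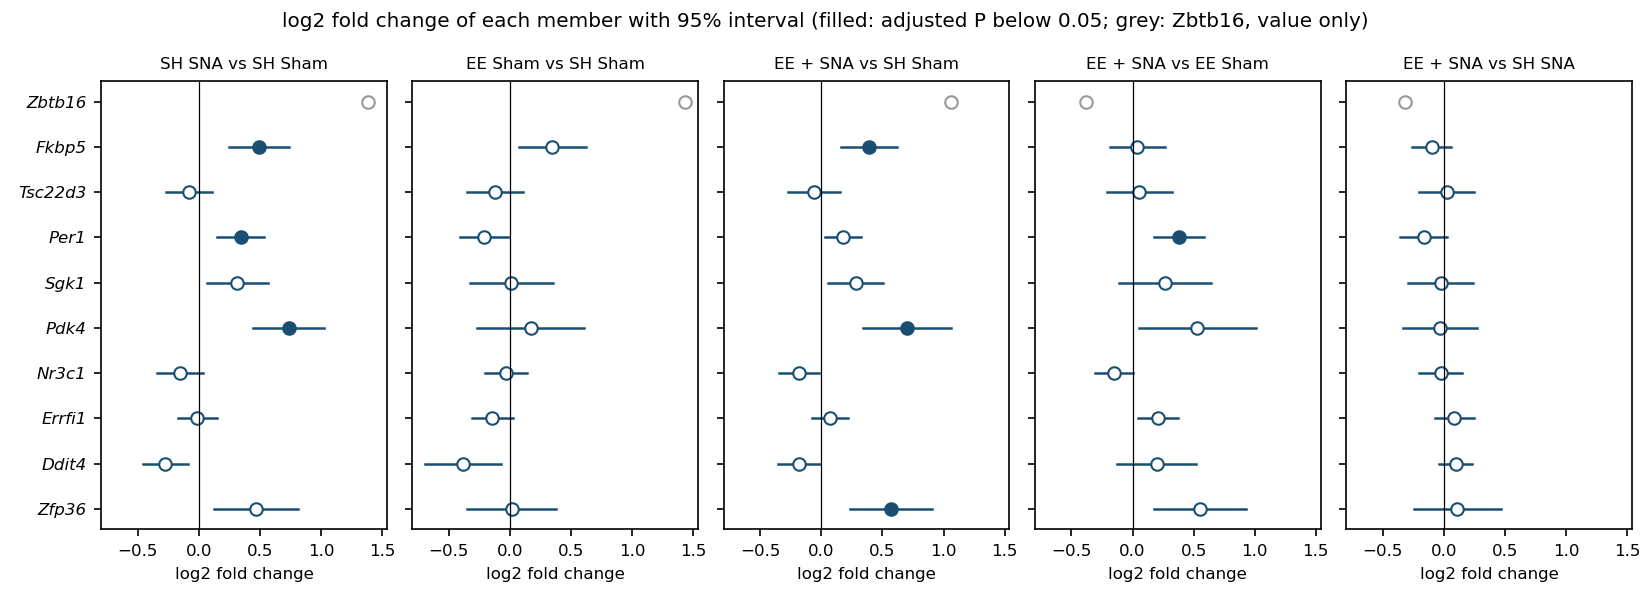
log2 fold change of each gene in 5 comparisons, with the 95% interval of the edgeR fit; filled points passed an adjusted P-value of 0.05, and Zbtb16 (grey) is plotted as a value only. Pdk4 and Fkbp5 are filled in both SNA groups against SH Sham, no point is filled for EE Sham against SH Sham or for EE + SNA against SH SNA.

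Other glucocorticoid targets, from a list of 32 genes of which 31 were tested, were called more often as higher than as lower after SNA. In SH SNA 11 of 31 rose and none fell, where 11.2% of all genes were called in either direction. The list was chosen with earlier results of these data known, so its shares beside those of all genes are descriptions. The largest changes were in Plin4, a lipid-droplet protein, at 1.44 ± 0.30 (adjusted P = 0.00896), Hif3a, a transcription factor of the hypoxia family, at 0.98 ± 0.29 (0.0480), Cdkn1a, the cell-cycle inhibitor p21, at 0.92 ± 0.07 (9.32e-06), and Mertk, a receptor for the uptake of dead cells, at 0.78 ± 0.15 (0.00448). Dusp1, the phosphatase that ends MAP kinase signals, rose from 25.9, 28.4 and 23.5 CPM in SH Sham to 39.0, 38.7 and 39.2 CPM in SH SNA, by 0.59 ± 0.08 (0.000750). Klf9, one of the most widely shared targets, differed by 0.14 ± 0.06 (0.190). The median log2 fold change of the list was 0.21, against 0.00465 over all genes. Cdkn1a and Dusp1 are also known to respond to injury by other routes.

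In EE + SNA against SH Sham 10 of the 31 rose and 1 fell, where 12.5% of all genes were called, with Plin4 at 1.88 ± 0.26 (adjusted P = 0.000702), Mertk at 0.99 ± 0.13 (0.000444), Cdkn1a at 0.81 ± 0.08 (5.97e-05) and Map3k6 at 0.74 ± 0.15 (0.00740), and Dusp1 at 0.71 ± 0.09 (0.000395). The 1 that fell was Foxo3, a transcription factor of the insulin pathway, at −0.22 ± 0.06 (0.0369). Against EE Sham, with no SH sample involved, 5 of 31 rose in EE + SNA and none fell, where 4.83% of all genes were called. There, surgery and batch cannot be told apart. The 4 with the largest change were Cdkn1a at 0.66 ± 0.11 (0.00430), Angptl4, an inhibitor of lipoprotein lipase, at 0.59 ± 0.12 (0.0139), Dusp1 at 0.53 ± 0.09 (0.00434) and Irs2, an adaptor of the insulin receptor, at 0.49 ± 0.12 (0.0366). The summed level of the 32 genes ran from 1342 to 1542 CPM in SH Sham, 1411 to 1641 CPM in EE Sham, 1743 to 1927 CPM in SH SNA and 1724 to 1958 CPM in EE + SNA. The SNA groups thus lay above both sham groups on this sum, in which abundant genes weigh most. Glul had means of 461 CPM in SH Sham, 637 in SH SNA and 629 in EE + SNA, and Cdkn1a of 118, 223 and 207 CPM. Others were lower in both SNA groups, such as Lpin1 at 120, 104 and 111 CPM. The sum therefore does not stand for an even shift of the list.

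In EE Sham against SH Sham, none of the 31 passed with edgeR after adjustment and 2 did unadjusted, where 0.00616% and 2.97% of all genes did. They were Plin4, at 4.28, 14.7 and 13.1 CPM in SH Sham and 11.9, 38.5 and 19.3 CPM in EE Sham, a log2 fold change of 1.16 ± 0.38, and Mertk, at 13.1, 20.4 and 17.7 CPM against 22.6, 31.6 and 28.4 CPM, a change of 0.70 ± 0.15. The Mertk groups did not overlap and those of Plin4 did. With the replicate block, which has a weak basis, both were called (edgeR adjusted P = 1.08e-08 for Plin4 and 1.21e-06 for Mertk). So were the neutrophil markers S100a8 and S100a9 (0.000190 and 0.00285). Plin4 is also abundant in adipocytes, whose summed markers were highest in the same EE Sham sample, replicate 2. Their part in the level of Plin4 was not tested.

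**Figure D3:**
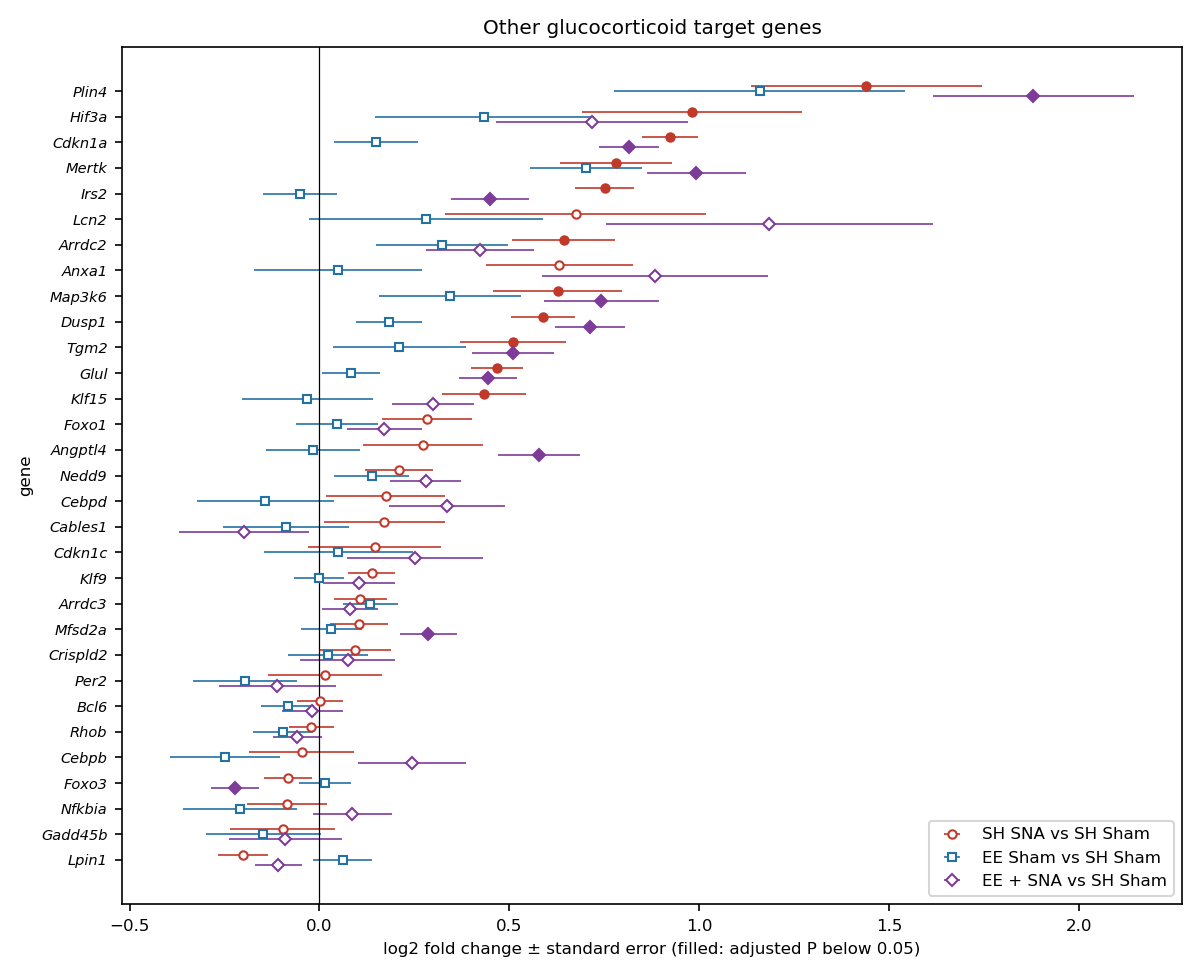
log2 fold change ± SE against SH Sham of 31 other glucocorticoid targets, ordered by SH SNA, in SH SNA (red circles), EE Sham (blue squares) and EE + SNA (purple diamonds); filled points passed an adjusted P-value of 0.05. The 11 filled circles lie to the right of 0, the filled diamonds do so except Foxo3, and no square is filled.

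Most of the genes were lowest or highest in the same sample in EE Sham and in SH SNA. In EE Sham, replicate 1 was lowest of the 3 samples for 8 of the 10 genes, with a median deviation from the group mean of −0.25 on the log2 scale, and replicate 2 was highest for 9 of 10, with a median of 0.19. In SH SNA, replicate 3 was highest for 9 of 10, with a median of 0.15. Over all genes tested, the median deviation of any sample lay within 0.01 of 0. Scaling between libraries holds that median near 0, so it is no yardstick for 10 genes moving together. Nr3c1 was the gene that ran the other way in both EE Sham samples. In the other samples at most 7 of the 10 genes were lowest or highest, as in EE + SNA replicate 2 (lowest, median −0.05). These counts include Zbtb16, and the share of all genes lowest or highest in these samples is not given here. With 3 samples a group, the counts describe the pools and carry no test. Which of the mice, the hour or the dissection differed between pools was not tested. The summed level of the 10 satellite and Schwann cell markers was also lowest in EE Sham replicate 1 (5725 CPM) and highest in replicate 2 (7748 CPM) of that group, and in SH SNA it was highest in replicate 3 (9274 CPM).

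**Figure D4:**
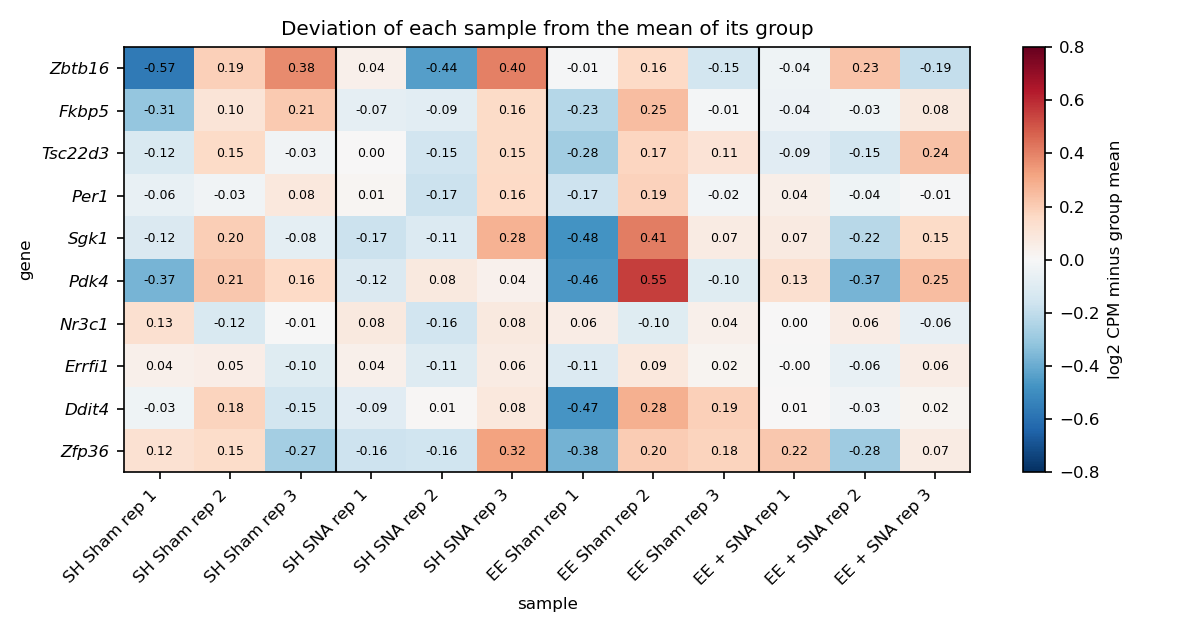
Deviation of each sample from the mean of its group (log2 CPM; red above, blue below, value in each cell) for the 10 genes. EE Sham replicate 1 is blue for most genes and replicate 2 red, with Sgk1, Pdk4, Ddit4 and Zfp36 spreading most.

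Over the 12 samples, Fkbp5 was the gene of the set most like Zbtb16, but not over the samples outside SH Sham. Over all 12 their log2 CPM had a Pearson r of 0.83 (Spearman 0.64), the 6th highest of 15343 genes with a mean of at least 1 CPM. The 5 above it were Aff1, Ippk, Mapk4, Tomt and Cd97, with r from 0.83 to 0.85 but small changes, such as 0.45 in Aff1 and 0.08 in Tomt on the log2 scale in SH SNA. Much of the likeness to Fkbp5 came from SH Sham, the group that set Zbtb16 apart: r was 0.47 without SH Sham replicates 1 and 2, the samples farthest from the median of Zbtb16, and 0.29 over the 9 samples outside SH Sham, where Nr3c1 had the highest r of the set, 0.68, against −0.30 over all 12. Within groups, the deviations from the group mean had r with those of Zbtb16 of 0.71 for Fkbp5 and 0.63 for Per1. For the rest of the set this r was lower, from −0.03 for Zfp36 to 0.29 for Tsc22d3. Among the other genes r with Zbtb16 over the 12 samples ran from 0.44 for Pdk4 to −0.51 for Ddit4. The samples share libraries and groups, so these r are descriptions.

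**Figure D5:**
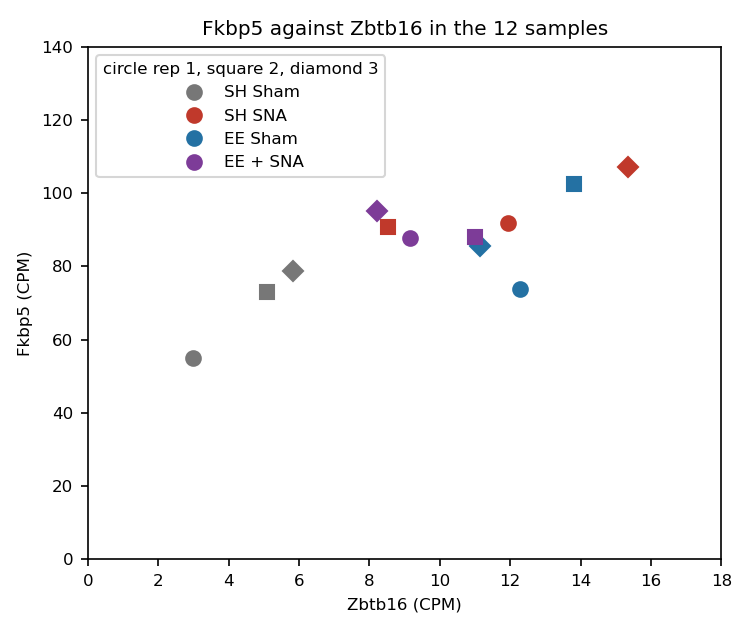
Fkbp5 against Zbtb16 (both in CPM, axes from 0) in the 12 samples, by group. The 3 SH Sham samples lie at the lower left, with Zbtb16 at most 5.82 CPM, and the other 9 samples spread without a clear line.

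Per length, the set spans a wide range of levels. Medians over the 12 samples were 51.0 FPKM for Tsc22d3 and 41.7 for Ddit4, then 13.7 for Fkbp5, 13.1 for Errfi1 and 12.4 for Sgk1. Pdk4 (7.55), Per1 (6.38), Nr3c1 (6.25) and Zfp36 (5.78) followed, and Zbtb16 was lowest at 1.96 FPKM. Neighbours from Fkbp5 down to Zfp36 overlapped over the samples, whereas Tsc22d3 reached no lower than 38.8 FPKM and Zbtb16 no higher than 2.998 FPKM. Tsc22d3 and Ddit4 overlapped as well, with Ddit4 from 25.0 to 54.4 FPKM.

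Some markers of several cell types in the ganglion differed between SNA and sham samples as well. Counts are given for SH SNA and then EE + SNA, each against SH Sham (edgeR, adjusted), where 11.2% and 12.5% of all genes were called. Of the 9 macrophage markers tested 2 and 3 rose, and of the 10 satellite and Schwann cell markers 1 and 2. Of the 3 red blood cell markers 2 and 3 rose, and of the 7 neutrophil markers tested 0 and 1. Of the 6 fibroblast markers 0 and 2 rose, and of the 6 endothelial markers 0 and 1. In both comparisons 3 of the 10 sensory neuron markers fell. The counts for satellite and Schwann cells, neutrophils and endothelium lay near the share of all genes. The 9 macrophage markers summed to between 126 and 137 CPM in SH Sham, 120 and 154 CPM in EE Sham, 146 and 200 CPM in SH SNA and 162 and 262 CPM in EE + SNA. The 3 red blood cell markers ran from 114 to 184 CPM in SH Sham, 111 to 307 in EE Sham, 190 to 516 in SH SNA and 175 to 595 in EE + SNA, so that only the SH SNA samples all lay above SH Sham. The 8 neutrophil markers ran from 68.3 to 179 CPM in SH Sham, 90.7 to 209 in EE Sham and 114 to 296 in SH SNA, and stood at 160, 144 and 672 CPM in EE + SNA, where replicate 3 alone lay above the SH Sham range. The 10 sensory neuron markers summed to between 9388 and 10307 CPM in SH Sham, 9104 and 9447 in EE Sham, 8804 and 9557 in SH SNA and 8937 and 9197 in EE + SNA. The 10 satellite and Schwann cell markers ran from 6323 to 7725 CPM in SH Sham, 6672 to 9274 in SH SNA and 7887 to 10005 in EE + SNA. The 6 skeletal muscle markers summed to between 3.05 and 123 CPM in SH Sham and 8.30 and 151 CPM in EE Sham. In EE + SNA they ran from 97.1 to 150 CPM. In SH SNA the median was 37.8 CPM and replicate 2 stood at 883 CPM. Against SH Sham none passed edgeR after adjustment, but unadjusted 5 were higher in SH SNA and 2 in EE + SNA. Over all genes, 25.2% and 27.2% passed unadjusted. Pdk4 in SH SNA replicate 2 (33.5 CPM) differed little from the other SH SNA samples. The order of the 3 samples by Pdk4 and by the muscle sum was the same in SH SNA, EE Sham and EE + SNA, but not in SH Sham. None of these lists had a marker at 0 in any sample. Their part in the changes of the glucocorticoid-responsive genes was not tested.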

How the data were processed

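Read counts came from 12 RNA-seq libraries of sciatic DRG (4 groups of 3, each library a pool of 2 mice). The authors aligned paired reads to mm10 with TopHat2 2.0.12 and Bowtie2 2.2.3, and counted them per gene with HTSeq; the deposited count table holds raw read counts, not normalized. The deposited FPKM, per length and library, served for levels between genes only. Reads that HTSeq left out, 56.3% to 56.8% of its totals and mostly on no feature, stayed out of the library sizes.

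The members and lists were chosen with earlier results of these data known. All 10 members are named, with list genes by size of change (up to 4 a list and comparison, mean of at least 1 CPM) and a few fixed genes such as Dusp1, Klf9 and Il6; genes most like Zbtb16 were the 5 with the highest Pearson r. With R 4.3.3, TMM scaling was applied to the counts after filtering with filterByExpr (10 counts, total of 15, given the 4 groups) in edgeR 4.0.16. Each of the 5 comparisons of 2 groups used its 6 samples with the two-sided quasi-likelihood F test, and the interaction all 12. CPM are TMM-scaled; log2 CPM had a prior count of 1. The samples are separate pools, and no 2 replicates agreed within counting noise.

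To see whether replicate numbers pair the samples, deviations from group means were correlated between samples. In EE Sham against SH Sham, same-numbered samples had r from 0.125 to 0.333 and were taken as paired. Different-numbered samples there ran from −0.331 to 0.197, overlapping these values. Neither labels nor methods describe a pairing, so it is a weak basis. In every other comparison at least 1 pair had r below 0.1. The replicate block moved the called members from 0 to 2 in EE Sham against SH Sham.

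Alternatives were the likelihood ratio test, which the authors used, DESeq2 1.42.0, library size scaling, no filter, the replicate block, all 12 samples in one fit, and each sample left out. Gene positions are from GENCODE M21 (GRCm38). Promoter windows are from RefSeq. The fits were tested on simulated data. Figures used Python 3.11.15 and Matplotlib 3.10.9.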

Additional observations from a re-analysis of the deposited data

Results flagged for a closer look

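In SH, all 3 SNA samples lay above all 3 sham samples for Zbtb16, whereas in EE all 3 SNA samples lay below all 3 sham samples, so that the change after SNA in EE minus that in SH was −1.75 on the log2 scale. The gene was picked for being high in SH SNA and EE Sham, and this choice favours such a difference, so the value is a description and no P-value is read from it. None of the other 9 genes showed opposite movement without overlap.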

How the results depend on the processing

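Counts are of the 9 tested genes and log2 values are for the named gene. The share of all genes called under these settings is not given here except for the block, so the counts describe only how the calls move. The block called 29 of all 16238 genes after adjustment in EE Sham and 887 in EE + SNA against EE Sham. Without the filter, the adjusted count went to 6 in SH SNA, 2 in EE Sham, 4 in EE + SNA against EE Sham and 2 for the interaction. With the replicate block it went to 2 in EE Sham and 0 in EE + SNA against EE Sham, where the likelihood ratio test gave 2; in EE Sham the block turned Sgk1 to −0.022. Unadjusted, DESeq2 gave 0 in EE Sham and 1 for the interaction, and all 12 samples in one fit gave 4 in EE + SNA against SH Sham. Leaving out 1 sample at a time, the adjusted count ran from 1 to 4 in SH SNA, 0 to 4 in EE + SNA against SH Sham and 0 to 2 in EE + SNA against EE Sham, and the unadjusted count from 1 to 3 in EE Sham, 3 to 6 in EE + SNA against SH Sham, 0 to 1 in EE + SNA against SH SNA, 2 to 7 in EE + SNA against EE Sham and 1 to 3 for the interaction. No change that passed adjustment turned its sign in these fits, but changes near 0 did. In SH SNA against SH Sham, the log2 values ran from −0.16 to 0.0033 for Tsc22d3 and from −0.062 to 0.038 for Errfi1. In EE Sham against SH Sham, the log2 values ran from −0.21 to 0.0068 for Tsc22d3, from −0.22 to 0.21 for Sgk1, from −0.17 to 0.37 for Pdk4, from −0.092 to 0.033 for Nr3c1 and from −0.11 to 0.18 for Zfp36. In EE + SNA against SH Sham, the log2 values ran from −0.19 to 0.021 for Tsc22d3. In EE + SNA against SH SNA, the log2 values ran from −0.10 to 0.10 for Tsc22d3, from −0.11 to 0.13 for Sgk1, from −0.16 to 0.15 for Pdk4, from −0.10 to 0.014 for Nr3c1 and from −0.0051 to 0.29 for Zfp36. In EE + SNA against EE Sham, the log2 values ran from −0.072 to 0.17 for Fkbp5, from −0.074 to 0.14 for Tsc22d3 and from −0.0036 to 0.33 for Ddit4. For the interaction, the log2 values ran from −0.042 to 0.15 for Per1, from −0.25 to 0.19 for Sgk1, from −0.41 to 0.14 for Pdk4, from −0.067 to 0.069 for Nr3c1 and from −0.075 to 0.28 for Zfp36. Of the gene values under all alternatives, 672 kept their direction and side of the threshold, 29 fell short of it, 24 newly passed and 45 changed sign. The causes were not tested. Depth limits Zbtb16 and Zfp36 most, at 51 and 74 reads in their lowest samples.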

Other observations

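Of 16 tested relatives of these genes, 2 rose and 2 fell in SH SNA, and likewise in EE + SNA against SH Sham, where 11.2% and 12.5% of all genes were called. Tsc22d2 and Tsc22d4, which share the leucine zipper of Tsc22d3, rose in SH SNA by 0.38 ± 0.07 and 0.28 ± 0.08 on the log2 scale (edgeR adjusted P = 0.00538 and 0.0414) and in EE + SNA against SH Sham by 0.31 ± 0.07 and 0.30 ± 0.07 (adjusted P = 0.0170 and 0.0144). The 2 that fell in both comparisons were Nr3c2 and Fkbp4, described above. Sgk3, the relative of Sgk1, differed by −0.08 ± 0.11 in SH SNA (adjusted P = 0.738).

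Of 9 immediate early genes, which mark recent activity, 1 rose in SH SNA, Arc, by 0.55 ± 0.14 (adjusted P = 0.0219), a share near the 11.2% of all genes called, and none in EE Sham or EE + SNA against SH Sham with edgeR after adjustment. At an unadjusted P-value of 0.05, 2 were higher in SH SNA, 1 was lower in EE Sham and 1 was lower in EE + SNA. Over all genes, 25.2%, 2.97% and 27.2% passed in these comparisons.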
